A study of Mus musculus with 7 samples.

Results

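Matrix metalloproteinases and their inhibitors were followed as 10 named genes among the 49382 genes of an RNA-seq table of mouse embryonic fibroblasts (MEFs). The genes were taken by symbol, each was on a single row, and they comprised Mmp2, Mmp3, Mmp10, Mmp13, Mmp14, Mmp19, Timp1, Timp2, Timp3 and Adamts1. The MEFs were primary wild type cells grown out of embryos from which the head and the blood-rich organs had been taken away, and a single untreated control library served all comparisons, with no culture time given in its label. Cells of the other libraries were held for 10 hours without glucose (glucose depletion), for 10 hours without glutamine (glutamine depletion), for 10 hours at 0.1% oxygen (hypoxia) or for 10 hours with 1 μM thapsigargin (ER stress), or for 3 hours with 10 μM sodium arsenite (oxidative stress) or 100 mM NaCl (osmotic stress). Each condition had 1 library. No replicate spread was thus available for any difference and no test was made. The labels do not say whether the libraries came from separate cultures, and treatment and exposure time cannot be told apart between the 3-hour and the 10-hour conditions.

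Metalloproteinases are zinc enzymes that fibroblasts release or carry on their surface as inactive precursors, and that cleave collagens, proteoglycans and other matrix and cell surface proteins once activated. The tissue inhibitors of metalloproteinases (TIMPs) bind the active enzymes, and TIMP2 also links the precursor of MMP2 to MMP14 at the cell surface, where MMP2 is activated. The data cover transcripts only and carry no information on zymogen activation or enzyme activity.

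Levels are given as TPM, the share of each library that a gene's transcripts held after correction for their length. A difference was taken as the change of log2(TPM + 1) against the control and was counted when it was more than 2-fold, a scale that understates changes of weakly expressed genes. The 12909 genes that averaged 2 TPM or more formed the background, and their median log2 change was -0.16 in oxidative stress, -0.12 in osmotic stress and within 0.1 of 0 elsewhere. The libraries held between 19819 and 21154 genes above 0 TPM. Of 1 response gene named per treatment, Hmox1, Akr1b3, Hspa5 and Bnip3 rose by more than 2-fold in the library of their treatment. Txnip fell in glucose depletion (log2 change -2.07), while Asns had a log2 change of 0.25 in glutamine depletion. Outside their own treatment, Txnip was at -3.12 in osmotic stress, and Hmox1 (2.75) and Asns (1.16) rose in ER stress. All 10 fibroblast markers reached 1 TPM and summed to between 6462 and 15898 TPM, against 7.45 to 16.9 TPM for the 8 macrophage markers, of which 5 were at 0 in at least 1 library. The 5 endothelial markers summed to 4.09 to 9.07 TPM and the 5 epithelial markers to 4.04 to 11.8 TPM.

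The inhibitors Timp1 and Timp2 were the most abundant of the 10. In the control library Timp1 stood at 1814 TPM, Timp2 at 1520 TPM, Mmp14 at 678 TPM, Timp3 at 531 TPM and Mmp2 at 266 TPM, while Mmp10 was at 0.478 TPM. Timp1 was rank 73 among all genes of that library and Timp2 rank 92. The 10 genes together made up 0.493% of the control library, between 0.461% and 0.641% of the other libraries apart from ER stress, and 0.200% of the ER stress library.

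**Figure D1:**
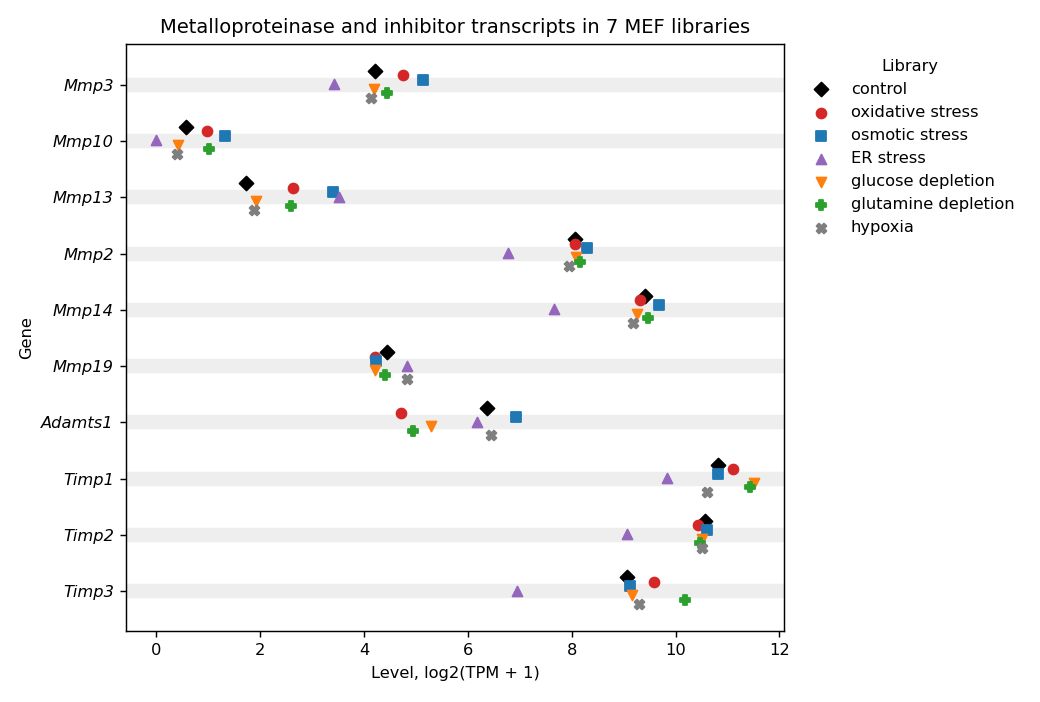
Level of each of the 10 genes in the 7 libraries, as log2(TPM + 1) on the horizontal axis, with 1 symbol per library and no error bars because there were no replicates. Timp1 and Timp2 lie farthest right, Mmp10 at the left edge, and the ER stress library is lowest for 7 of the genes and highest for Mmp13 and Mmp19.

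ER stress moved the most members, 5 of 10, past 2-fold. Mmp2, Mmp14, Timp2 and Timp3 fell by more than 2-fold, 4 of 10 where 11.0% of the background genes fell, and Mmp13 rose, 1 of 10 where 8.60% rose. The median log2 change of the 10 genes was -0.89, against 0 for the background. In osmotic stress Mmp13 rose (background 3.08%) and no member fell (8.76%). In oxidative stress no member rose (3.94%) and Adamts1 fell (4.85%). In glucose depletion no member rose (1.83%) and Adamts1 fell (2.41%). In glutamine depletion Timp3 rose (3.21%) and Adamts1 fell (3.21%). In hypoxia no member rose (3.57%) or fell (2.64%), and the 10 changes ran from -0.22 to 0.39. In all, 10 of 60 gene and condition pairs were past 2-fold and involved 6 of the genes. Of these pairs 5 were in ER stress, where the background shares were also the largest, and no pooled background share was computed. Mmp3, Mmp10, Mmp19 and Timp1 were not past 2-fold in any condition.

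**Figure D2:**
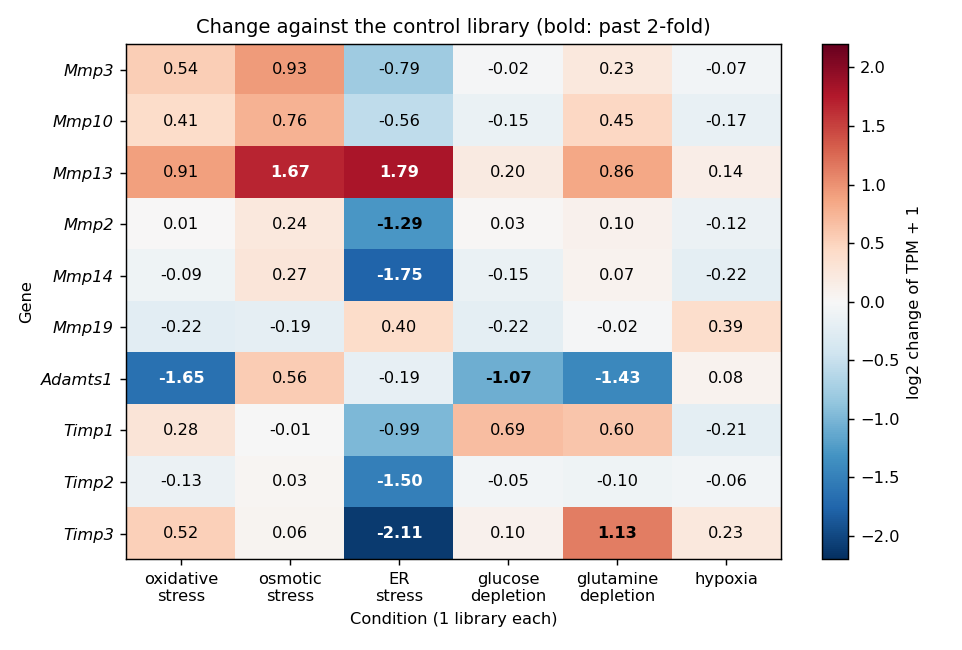
Change of log2(TPM + 1) against the control library for each gene (rows) and condition (columns), with red for higher and blue for lower values and bold figures for changes past 2-fold. The ER stress column holds -2.11 for Timp3 and -1.75 for Mmp14, the Adamts1 row holds -1.65 in oxidative stress and -1.43 in glutamine depletion, and the hypoxia column has no bold figure.

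The collagenase Mmp13, which cleaves fibrillar collagen, was at 2.31 TPM in the control, 2.66 in hypoxia, 2.80 in glucose depletion, 5.01 in glutamine depletion, 5.21 in oxidative stress, 9.54 in osmotic stress and 10.4 in ER stress. The control was the lowest of the 7 libraries, and the log2 changes were 1.79 in ER stress and 1.67 in osmotic stress. Glutamine depletion (0.86) and oxidative stress (0.91) did not pass 2-fold on this scale. Relative to the median of all genes the oxidative stress value was 1.06, which is past 2-fold. With the median of the 7 libraries as the reference in place of the control, Mmp13 passed 2-fold in no condition, with values of 0.93 in ER stress and 0.81 in osmotic stress.

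The stromelysins Mmp3 and Mmp10 cleave proteoglycans and glycoproteins and activate other metalloproteinase precursors. Mmp3 was at 9.69 TPM in ER stress, 16.6 in hypoxia, 17.2 in glucose depletion, 17.4 in the control, 20.7 in glutamine depletion, 25.8 in oxidative stress and 34.2 in osmotic stress. The osmotic stress value was 1.96 times that of the control (log2 change 0.93, or 1.05 relative to the median of all genes), just short of 2-fold, and the control, glucose depletion and hypoxia values lay close together. Mmp10 was listed at 0 in ER stress and stood at 0.316 TPM in hypoxia, 0.329 in glucose depletion, 0.478 in the control, 0.964 in oxidative stress, 1.02 in glutamine depletion and 1.503 in osmotic stress. Osmotic stress was highest and ER stress lowest, at levels near the pseudocount of 1 TPM that damp the log2 changes (0.76 and -0.56). Osmotic stress, oxidative stress and glutamine depletion were above the control for each of Mmp3, Mmp10 and Mmp13, whereas ER stress was highest for Mmp13 and lowest for Mmp3 and Mmp10. The osmotic stress library also held the highest macrophage marker sum, 16.9 TPM against 11.5 TPM in the control, but the markers did not move together. Cd68 (7.21 to 9.36 TPM), Csf1r, Lyz2, Adgre1 and Itgam were higher than in the control. Tyrobp (0.672 to 0 TPM) and Fcer1g (0.525 to 0.309 TPM) were lower, and Ptprc was at 0 in both libraries. The part of this sum in the Mmp values was not tested.

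These genes lie together. In GENCODE M21 on GRCm38, 10 Mmp genes occupy chromosome 9 from 7272514 to 7699585, a stretch of 427 kb, with Mmp13 from 7272514 to 7283331, Mmp3 from 7445822 to 7455975 and Mmp10 from 7502352 to 7510240, all on the plus strand. Of the 10 genes, 6 stayed below 1 TPM in every library, among them the interstitial collagenases Mmp1a and Mmp1b and the neutrophil collagenase Mmp8. Mmp12 reached 1.03 TPM in 1 library. Mmp3 and Mmp10 are related in sequence, and 11.9% of the 31-base words of the Mmp10 transcript, the word length at which Kallisto matches reads by default, also occur in Mmp3. Since Mmp3 was the more abundant, part of the Mmp10 signal is uncertain.

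The upstream sequences of Mmp13, Mmp3 and Mmp10 are shown because these neighbours on chromosome 9 were above the control in osmotic stress, oxidative stress and glutamine depletion, with Mmp13 highest in ER stress, and each carries a match to the AP-1 motif, the binding sequence of Fos and Jun dimers. The 250 bases before the RefSeq start site (GRCm38.p6, plus strand, 5′ to 3′) lie at chr9:7272264-7272513 for Mmp13, chr9:7445572-7445821 for Mmp3 and chr9:7502092-7502341 for Mmp10, with capitals marking TGAGTCA or its reverse complement TGACTCA.
Mmp13: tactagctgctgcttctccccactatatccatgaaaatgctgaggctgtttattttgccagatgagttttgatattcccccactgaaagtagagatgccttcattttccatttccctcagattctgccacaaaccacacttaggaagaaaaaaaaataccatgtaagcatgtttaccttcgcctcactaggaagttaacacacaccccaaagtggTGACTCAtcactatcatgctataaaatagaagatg
Mmp3: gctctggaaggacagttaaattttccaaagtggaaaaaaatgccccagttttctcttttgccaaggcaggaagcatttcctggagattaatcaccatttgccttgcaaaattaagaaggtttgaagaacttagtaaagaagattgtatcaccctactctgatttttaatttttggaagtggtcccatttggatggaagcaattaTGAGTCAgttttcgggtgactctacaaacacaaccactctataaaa
Mmp10: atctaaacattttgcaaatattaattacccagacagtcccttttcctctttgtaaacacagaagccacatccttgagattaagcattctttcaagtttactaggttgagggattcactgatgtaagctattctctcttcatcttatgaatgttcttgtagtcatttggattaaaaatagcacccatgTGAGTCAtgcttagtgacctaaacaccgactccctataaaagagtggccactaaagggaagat

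Counted from the start site, the AP-1 match lay at -35 to -29 in Mmp13 (reverse strand), at -46 to -40 in Mmp3 and at -63 to -57 in Mmp10, in each case upstream of a TATAAA match. RefSeq upstream sequences were found for 8 of the 10 genes, all but Mmp2 and Mmp19. The Timp2 window, chr11:118355412-118355661, lies inside the gene as GENCODE M21 places it (118301069 to 118355740, minus strand). The bases before that GENCODE start were therefore not searched for Timp2. The Timp3 window ends at 86300411, past the GENCODE start at 86300372. On either strand, the AP-1 letters occurred in 3 of these 8 and in 4.46% of 32851 promoters of the same length. TATAAA occurred in 4 of the 8 (the same 3 and Adamts1) and in 12.4% of all. Mmp3, Mmp10 and Mmp13 are neighbouring genes, and Mmp3 and Mmp10 are related in sequence, so their matches are not independent. The genes and motifs were also chosen with earlier results of these data known. No enrichment can therefore be read from these shares. The ETS factor core AGGAAG (PEA3) was found in Mmp3, Mmp13, Mmp14, Timp1 and Timp3 and in 29.5% of all promoters. The HIF core ACGTG (HRE) was found in Mmp14 and Timp1 and in 16.6% of all, and the CREB and ATF element TGACGTCA (CRE) in none of the 8 and in 1.55% of all. A match of letters is not evidence of binding, and none of the motifs overlapped another in these windows.

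**Figure D3:**
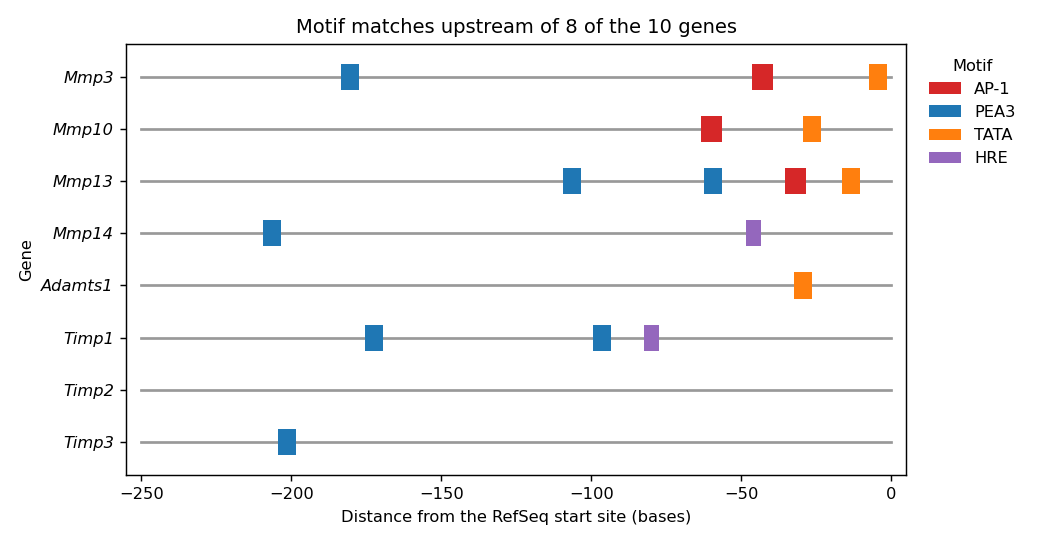
Positions of the motif matches, in bases from the RefSeq start site on the horizontal axis, in the 250 upstream bases of 8 genes (rows), with colours for the motif. AP-1 matches appear only in Mmp3, Mmp10 and Mmp13 of these 8, between -63 and -29. Timp2 has no match to any of the 5 motifs, in a window that lies inside the gene as GENCODE places it.

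Among the AP-1 subunits themselves, Fosb, Junb and Fosl1 rose in osmotic stress, with log2 changes of 1.86, 1.44 and 1.02. Of the 7 subunits, 4 were above the control there and 3 below it, namely Jun (-0.39), Jund (-0.33) and Fos (-0.01). Fosb, Junb and Fosl1 also rose in glutamine depletion, with 1.47, 1.34 and 1.18, where 6 subunits were above the control and Jund (-0.34) was below it. In oxidative stress Fosb (1.94) and Fosl1 (1.42) rose. In ER stress Fosl1 alone of the 7 subunits rose (1.20), and the other 6 were below the control without passing 2-fold. No subunit passed 2-fold in glucose depletion or hypoxia. The background shares that rose were 3.08% in osmotic stress, 3.21% in glutamine depletion, 3.94% in oxidative stress and 8.60% in ER stress. With the median of the 7 libraries as the reference Fosl1 passed 2-fold in none of these conditions (0 in osmotic stress, 0.16 without glutamine, 0.18 in ER stress and 0.40 under oxidative stress). Fosb was at 1.03 TPM in the control. With a pseudocount of 5 TPM it stayed inside 2-fold in the 3 conditions in which it rose, at 0.68 to 0.97. The part of the AP-1 subunits and of the AP-1 matches in the Mmp3, Mmp10 and Mmp13 values was not tested.

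Mmp14, the membrane-anchored metalloproteinase that activates the MMP2 precursor, was the most abundant Mmp transcript. It stood at 200.4 TPM in ER stress, 582 in hypoxia, 612 in glucose depletion, 637 in oxidative stress, 678 in the control, 711 in glutamine depletion and 820 in osmotic stress. The ER stress library was 3.38 times lower than the control (log2 change -1.75), while the other conditions lay between -0.22 and 0.27. Mmp14 lies on chromosome 14 from 54431612 to 54445364, in the same annotation and build as all other gene positions given here.
The gelatinase Mmp2, on chromosome 8 from 92827291 to 92853420, cleaves denatured collagen and basement membrane collagen. It was at 109 TPM in ER stress, 245 in hypoxia, 266 in the control, 268 under oxidative stress, 271 without glucose, 286 without glutamine and 314 in osmotic stress. ER stress was again the one library that stood apart, 2.45 times below the control (log2 change -1.29). In the other 5 conditions Mmp2 was within -0.12 to 0.24 of the control on the log2 scale.

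Timp2, on chromosome 11 from 118301069 to 118355740, followed the same pattern. It was at 536 TPM in ER stress, 1388 under oxidative stress, 1420 without glutamine, 1458 in hypoxia, 1465 in glucose depletion, 1520 in the control and 1557 in osmotic stress. Its log2 change in ER stress was -1.50 and its other 5 changes lay between -0.13 and 0.03, the narrowest range of the 10 genes outside ER stress. The transcript ratio of Mmp14 to Timp2 was 0.446 in the control and ran from 0.374 in ER stress to 0.527 in osmotic stress, and that of Mmp2 to Timp2 was 0.175 in the control and ran from 0.168 in hypoxia to 0.203 in ER stress. The 3 transcripts of the MMP2 activation complex were all lower in ER stress.

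Timp3 had the widest range of the 10 genes, 3.24 log2 units. TIMP3 binds to the matrix and also inhibits ADAM and ADAMTS proteases. Its transcript was at 122 TPM in ER stress, 531 in the control, 554 in osmotic stress, 569 in glucose depletion, 624 in hypoxia, 763 in oxidative stress and 1161 in glutamine depletion. Glutamine depletion was 2.19 times above the control (log2 change 1.13) and ER stress 4.34 times below it (-2.11), the largest fall of any of the 10 genes. Timp3 lies on chromosome 10 from 86300372 to 86349506, and 21.9% of the 31-base words of its transcripts also occur in transcripts of another gene, mainly Syn3, which was between 0.157 and 0.472 TPM.
Timp1 (chromosome X, 20870166 to 20874735) encodes a secreted inhibitor. Its transcript stood at 915 TPM in ER stress, 1564 in hypoxia, 1801 in osmotic stress, 1814 in the control, 2203 in oxidative stress, 2756 in glutamine depletion and 2919 in glucose depletion. The depletion libraries were the highest, at 1.61 times the control without glucose (log2 change 0.69) and 1.52 times without glutamine (0.60). ER stress was at -0.99, just short of 2-fold. In glucose depletion the Timp1 change was the largest positive change of the 10 genes, and Timp2 and Timp3 stayed at -0.05 and 0.10.

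Adamts1, a protease of versican and aggrecan encoded on chromosome 16 from 85793827 to 85803113, was the one member past 2-fold in 3 conditions. It was at 25.2 TPM in oxidative stress, 29.6 in glutamine depletion, 38.3 in glucose depletion, 71.3 in ER stress, 81.3 in the control, 86.1 in hypoxia and 121 in osmotic stress. The libraries fell into a low set of oxidative stress (log2 change -1.65), glutamine depletion (-1.43) and glucose depletion (-1.07) and a higher set with ER stress, the control, hypoxia and osmotic stress (-0.19 to 0.56). Unlike Mmp2, Mmp14 and the TIMPs, Adamts1 was near its control level in ER stress. With the median of the 7 libraries as the reference the glucose depletion value was -0.88, inside 2-fold.
Mmp19, which cleaves basement membrane components, varied least. It was at 17.5 TPM under both oxidative stress and glucose depletion, 17.9 in osmotic stress, 20.3 in glutamine depletion, 20.6 in the control, 27.4 in hypoxia and 27.4 in ER stress. Hypoxia and ER stress were the highest libraries, with log2 changes of 0.39 and 0.40, both inside 2-fold. Mmp19 is on chromosome 10 from 128790910 to 128800824 and shares 26.7% of its 31-base words with other genes, mainly Tmem198b, which was between 10.9 and 29.5 TPM, so part of its level is uncertain.

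Summed over the 6 Mmp genes and the 3 Timp genes, the ratio of enzyme to inhibitor transcripts was 0.255 in the control. It was lowest in glucose depletion (0.186) and glutamine depletion (0.196), where the Timp sum was 4954 and 5336 TPM against 3865 TPM in the control while the Mmp sum was 921 and 1044 TPM against 985 TPM. The ratio was 0.219 in oxidative stress and 0.240 in hypoxia, and was highest in osmotic stress (0.306). In ER stress both sums were lower, at 357 and 1573 TPM, and the ratio was 0.227. Without Mmp14 and Timp1, the most abundant gene of each kind, the ER stress ratio was 0.237, the highest of the 7, with osmotic stress at 0.179, and glucose depletion (0.152) no longer stood below the control (0.150). These are ratios of transcripts, dominated by Mmp14, which made up 68.8% of the Mmp sum in the control.

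**Figure D4:**
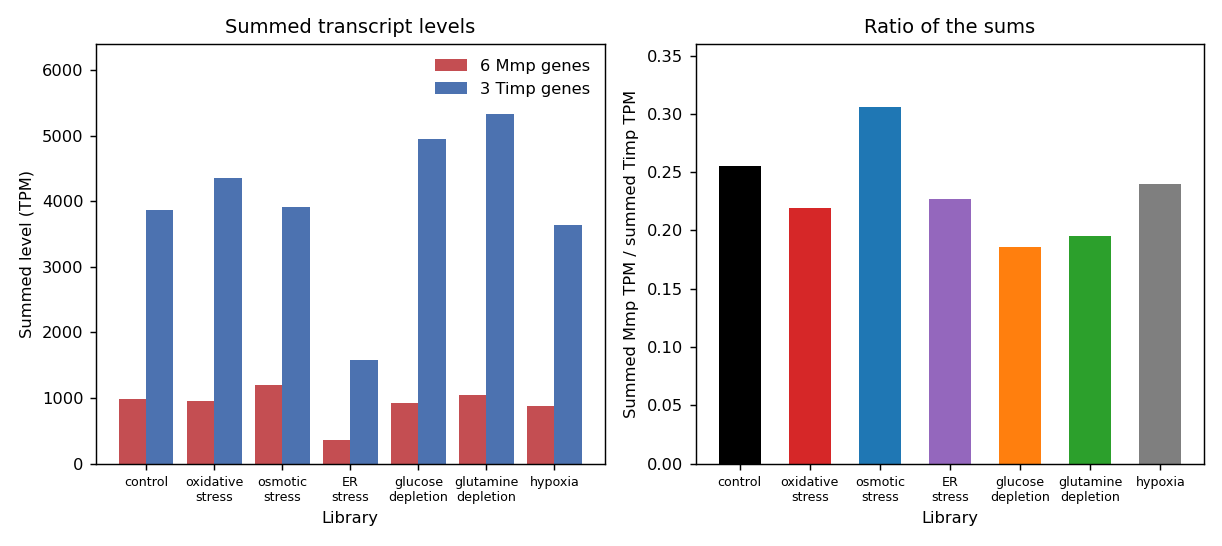
Left, summed TPM of the 6 Mmp genes (red) and the 3 Timp genes (blue) in each library. Right, the ratio of the sums, with 1 bar per library and both axes starting at 0. The ratio is highest in osmotic stress at 0.306 and lowest in glucose depletion at 0.186, and the ER stress library has the lowest sums of both kinds.

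The lower values in ER stress reached beyond the 10 genes. For comparison, 11.0% of the background genes fell by more than 2-fold in that library, and the background median change was 0. Of 9 other Adamts genes that averaged 2 TPM or more, all 9 were below the control in ER stress and 4 fell by more than 2-fold, with a median of -0.86. These were Adamts12 (19.3 to 3.28 TPM, log2 change -2.24), Adamts7 (-1.36), Adamts10 (-1.22) and Adamts9 (-1.19). Of 8 regulators of metalloproteinases, all 8 were below the control and 4 fell, namely the inhibitor Tfpi2 (5.75 to 0.532 TPM, -2.14), the membrane-anchored inhibitor Reck (21.4 to 5.52 TPM, -1.78), the clearance receptor Lrp1 (192 to 74.4 TPM, -1.35) and the proprotein convertase Furin (-1.11), which removes the prodomain of MMP14. All 8 Adam sheddases were below the control, and Adam33 fell (-1.70). Of 4 other Mmp genes, 2 were above the control (Mmp11 and Mmp28, at 0.0043 and 0.14) and Mmp16 fell (-1.17). The Mmp16 value was -0.79 with a pseudocount of 5 TPM and -0.69 with the median reference. With that pseudocount Adamts7 (-0.55) and Tfpi2 (-0.96) also lay inside 2-fold. Adamts9 (5.36 to 1.79 TPM), Adamts10 (22.8 to 9.18 TPM) and Furin were not run with these alternatives, so whether they stay past 2-fold is not known. The fibroblast markers were also lower in this library, 10 of 10 below the control and 4 past 2-fold, with a summed level of 6462 TPM against 14869 TPM and a median change of -0.87, close to that of the 10 genes. S100a4 (-3.54), Lum (-2.33), Col3a1 (-2.07) and Pdgfrb (-1.15) were the 4. The epithelial marker sum was highest in this library, 11.8 TPM against 6.34 TPM in the control, but most of it was Krt18. Krt18 (5.56 to 10.6 TPM) and Krt8 (0.172 to 1.00 TPM) were higher than in the control. Krt14 (0.436 to 0.188 TPM), Cdh1 (0.0934 to 0.0604 TPM) and Epcam (0.0753 to 0 TPM) were lower. The part of these shifts in the lower Mmp and Timp values was not tested. A lower transcript level per cell and fewer cells of a kind cannot be told apart in bulk RNA.

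The plasminogen activator system yields plasmin, which activates several metalloproteinase precursors. In glutamine depletion, of 5 of its genes that averaged 2 TPM or more, 3 rose where 3.21% of the background genes rose, with a list median of 1.29. These were Plau, which encodes the urokinase activator (64.3 to 159 TPM, log2 change 1.29), its receptor Plaur (106 to 280 TPM, 1.40), and the activator inhibitor Serpinb2 (0.938 to 4.79 TPM, 1.58). Plaur (1.13) and Serpinb2 (1.17) also rose in oxidative stress. The Serpinb2 values rest on a control level below 1 TPM. They lay inside 2-fold with a pseudocount of 5 TPM (0.72 in glutamine depletion, 0.49 in oxidative stress) or the median reference (0.86 and 0.45). Plaur was not run with these alternatives, so whether it stays past 2-fold is not known. In ER stress Plau fell from 64.3 to 4.29 TPM (-3.63) and Plat, the tissue-type activator, from 31.6 to 5.71 TPM (-2.28). In osmotic stress Plat rose to 70.3 TPM (1.13, or 0.76 with the median reference), and in hypoxia Plaur fell to 48.1 TPM (-1.12).

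**Figure D5:**
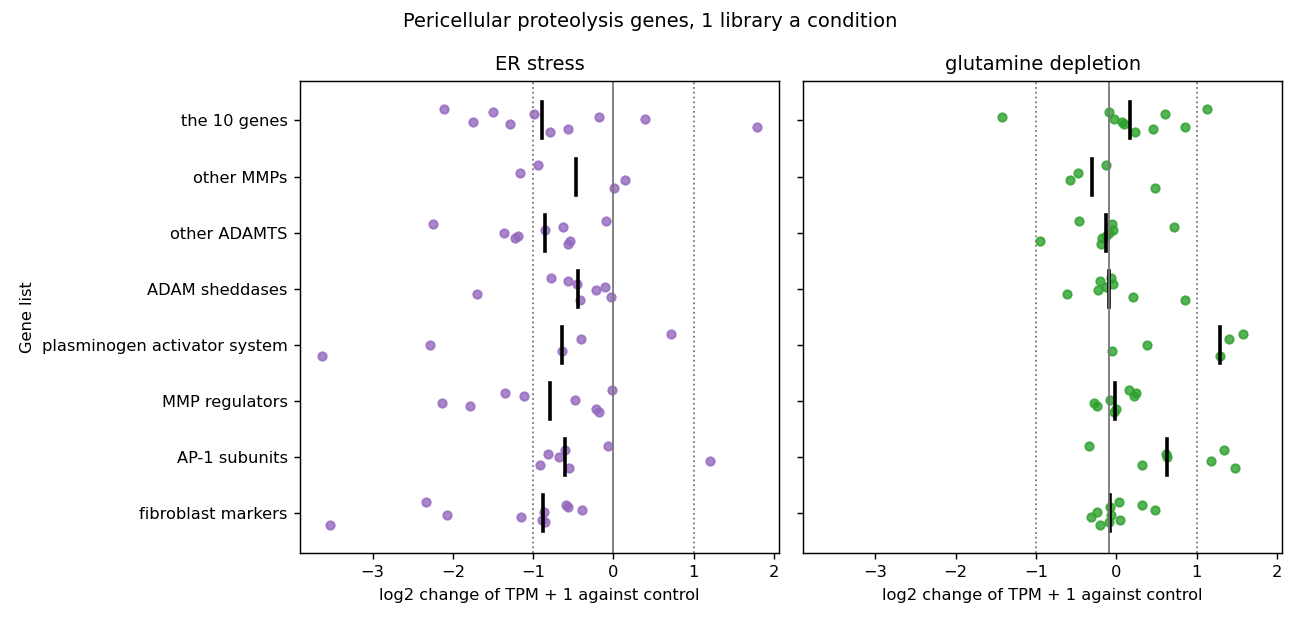
Change of log2(TPM + 1) against the control in ER stress (left) and glutamine depletion (right) for the 10 genes and for 7 gene lists. The lists show genes averaging 2 TPM or more, 1 point each, and were chosen with earlier results of these data known. Black bars are list medians, the grey line the median of all background genes and the dotted lines 2-fold. In ER stress the medians run from -0.44 to -0.89, and in glutamine depletion the plasminogen activator list stands at 1.29.

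Outside ER stress few other proteases of these families passed 2-fold. Adamts5, an aggrecanase, fell in oxidative stress from 41.0 to 14.7 TPM (-1.42) and was at -0.95 in glutamine depletion and -0.64 in glucose depletion, the conditions in which Adamts1 fell. With the median reference the oxidative stress value was -0.89, inside 2-fold. Adam19 fell in osmotic stress, from 57.5 to 23.3 TPM (-1.27). All comparisons share the 1 control library, and a gene's values in them are not independent.

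Timp3, as the member with the widest range, was compared with 8818 genes of at least 10 TPM on average. The genes with the most similar log2(TPM + 1) profile over the 7 libraries were Vcl (vinculin, a focal adhesion protein, Pearson r = 0.994), mt-Th (a mitochondrial transfer RNA listed at 0 in ER stress, 0.989), Sdc4 (syndecan 4, a cell surface proteoglycan, 0.987), Plau (0.980) and Ap1s2 (a subunit of a clathrin adaptor, 0.977). Over the 6 libraries other than ER stress the values were 0.965, 0.956, 0.947, 0.862 and 0.845. Vcl, for example, was at 314 TPM in the control, 89.6 TPM in ER stress and 518 TPM in glutamine depletion. These correlations describe 7 libraries with 1 value each and were picked as the highest of many.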

How the data were processed

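RNA of MEFs gave 7 libraries, which were made with a stranded mRNA kit and sequenced from both ends. Per the submitters' processing notes and the study's methods, the authors ran Kallisto 0.43.1 with default settings on Ensembl cDNA transcripts of GRCm38. The deposited values are TPM, summed by the authors over the transcripts of each gene. TPM keeps no read count, so depth is unknown and no counting interval can be given, and the share of a gene depends on what all others take up. Default settings use no strand, so reads of overlapping genes on opposite strands cannot be told apart.

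From these values log2(TPM + 1) was computed, the control was subtracted and changes past 2-fold were counted, the rule of the study's methods. All 10 members were counted, of which 9 had a mean of at least 2 TPM. No test was made, because each condition had 1 library. Locations and 31-base words came from GENCODE M21 (GRCm38) and upstream sequences from RefSeq (GRCm38.p6). The members, gene lists and motifs were chosen with earlier results of these data known. Named genes were all members, at most 3 genes past 2-fold per list with the largest change in any condition, 1 gene per treatment, and the 5 genes most like the widest-ranging member. Adamts9, Adamts10, Furin, Mmp11, Mmp28, Plaur and the marker genes given values were chosen after their values were seen. Alternatives were pseudocounts of 0.1 and 5 TPM, subtraction of the median change over all genes, no filter or a filter at a mean of 10 TPM, thresholds of 1.5-fold and 3-fold, removal of mitochondrially encoded genes, the median of the 7 libraries as the reference, and other gene sets for the summed ratio. The plasminogen activator list is reported in part. The counting steps were tested on simulated data with planted changes past the threshold and little noise. Such a run checks the code only and says nothing of the spread between cultures. Computation used Python 3.11.15 with pandas 2.3.3 and numpy 2.4.6, and plots matplotlib 3.10.9.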

Additional observations from a re-analysis of the deposited data

How the results depend on the processing

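No paired analysis was possible because each condition had 1 library and the labels carry no replicate numbers. Without replicates or read counts no setting tells a change from the variation between cultures. Alternative log2 changes were computed for the members and for the at most 3 genes per list named by their largest change. Of these 750 values, none turned the direction of a change past 2-fold and 38 crossed the 2-fold line. The genes chosen after their values were seen, the response genes of the treatments and the markers were not among them. The filter at a mean of 2 TPM applied only to the background genes, so leaving it out could not change a count of members.
The number of members that rose in oxidative stress, 0, became 1 with a pseudocount of 0.1 TPM, with centring on the median of all genes and at 1.5-fold. In osmotic stress the 1 that rose became 2 with a pseudocount of 0.1 TPM or centring, 3 at 1.5-fold, and 0 with a pseudocount of 5 TPM, a mean of at least 10 TPM (which leaves out Mmp13) or the median of the 7 libraries as the reference. In ER stress the 1 that rose became 0 with a mean of at least 10 TPM or the median reference, and the 4 that fell became 2 at 3-fold, 5 with a pseudocount of 0.1 TPM or without mitochondrially encoded genes, and 6 at 1.5-fold. In glucose depletion 1 rose at 1.5-fold in place of 0, and the 1 that fell became 0 with a pseudocount of 5 TPM, at 3-fold or with the median reference. In glutamine depletion the 1 that rose became 2 with a pseudocount of 0.1 TPM, 3 at 1.5-fold and 0 at 3-fold, and the 1 that fell became 0 at 3-fold.
With all Mmp and Timp genes, the ratio of summed Mmp to Timp TPM was 0.295 in the control, 0.284 in hypoxia, 0.251 in oxidative stress, 0.347 in osmotic stress, 0.292 in ER stress, 0.225 without glutamine and 0.213 without glucose. Without Mmp14 and Timp1 it was 0.150, 0.140, 0.148, 0.179, 0.237, 0.129 and 0.152 in the same order, so the places of ER stress and glucose depletion relative to the control depended on these genes. The background shares that rose or fell, 1.83% to 11.0% over the 6 conditions, were 3.47% to 21.3% at 1.5-fold and 1.20% to 4.31% at 3-fold.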
